A study of Mus musculus with 9 samples.

Results

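Epithelial ion, water and proton transport was followed in the olfactory mucosa through 10 genes: the sodium channel subunit genes Scnn1a, Scnn1b and Scnn1g, the chloride channel genes Ano1 and Cftr, the cotransporter gene Slc12a2, the aquaporin genes Aqp3, Aqp4 and Aqp5, and the proton pump subunit gene Atp6v0a4. They were taken by gene symbol, with the brightest probe of each gene, from 19084 named genes on the array, and all 10 were measured. The genes were chosen by their measured log2 intensity in the control, 1-day and 2-week groups, with results of these data known, so their values are a description and carry no p-value. The RNA came from male C57BL/6 mice of 6 to 8 weeks, with 27 mice in 3 groups of 9, and 3 samples of each group were put on single-colour arrays. Control mice had saline for 2 weeks. The 2-week group (WK2) had dexamethasone, a synthetic glucocorticoid, every day for 2 weeks by intraperitoneal injection at 1 mg/kg. The 1-day group (D1) had dexamethasone for 1 day; the labels state the dose beside the 2-week group, and D1 differs from its control also in how long injections went on. The arrayed samples were those of optimal expression of olfactory marker protein, and no label ties samples to single animals, so any test here measures the spread between samples, which may be technical. The marker of the tissue, Omp, stood at 300267 to 411529 in control, and the supporting-cell gene Cyp2g1 at 373325 to 469440. They mark mature neurons and supporting cells, which are among the cell types of an olfactory mucosa. Omp was used to pick the samples.

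The mucus over the olfactory epithelium is a thin salt solution that odorants must cross. Epithelia set its volume by absorbing sodium through the epithelial sodium channel (ENaC, made of alpha, beta and gamma subunits) and by secreting chloride through Cftr and the calcium-activated channel Ano1, with chloride brought into the cell by the cotransporter Slc12a2 and water following through aquaporins. Proton pumps of the V-ATPase type acidify vesicles in all cells and, in specialised cells, the fluid outside. In the kidney and lung, glucocorticoids and mineralocorticoids are known regulators of ENaC. Each level below is the deposited intensity of 1 probe on a linear scale. Probes differ in brightness for reasons other than RNA, so levels are compared between arrays and never between genes. The tissue was measured in bulk, so fewer cells of a type and less RNA per cell cannot be told apart.

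Atp6v0a4, Ano1, Aqp5 and Scnn1b had groups that did not overlap with control, and in none of the 3 comparisons did any of the 10 genes pass the test over all features. Atp6v0a4 was higher after 1 day of dexamethasone, with an intensity of 4599 ± 840 (SD, n = 3) against 2551 ± 611 in control. Ano1 and Aqp5 were lower after 2 weeks, at 68.1% and 65.0% of their control means. Scnn1b was modestly higher after 2 weeks, at 120.9% of its control mean. Scnn1a, Scnn1g, Cftr, Slc12a2, Aqp3 and Aqp4 overlapped with control in both treated groups.

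**Figure D1:**
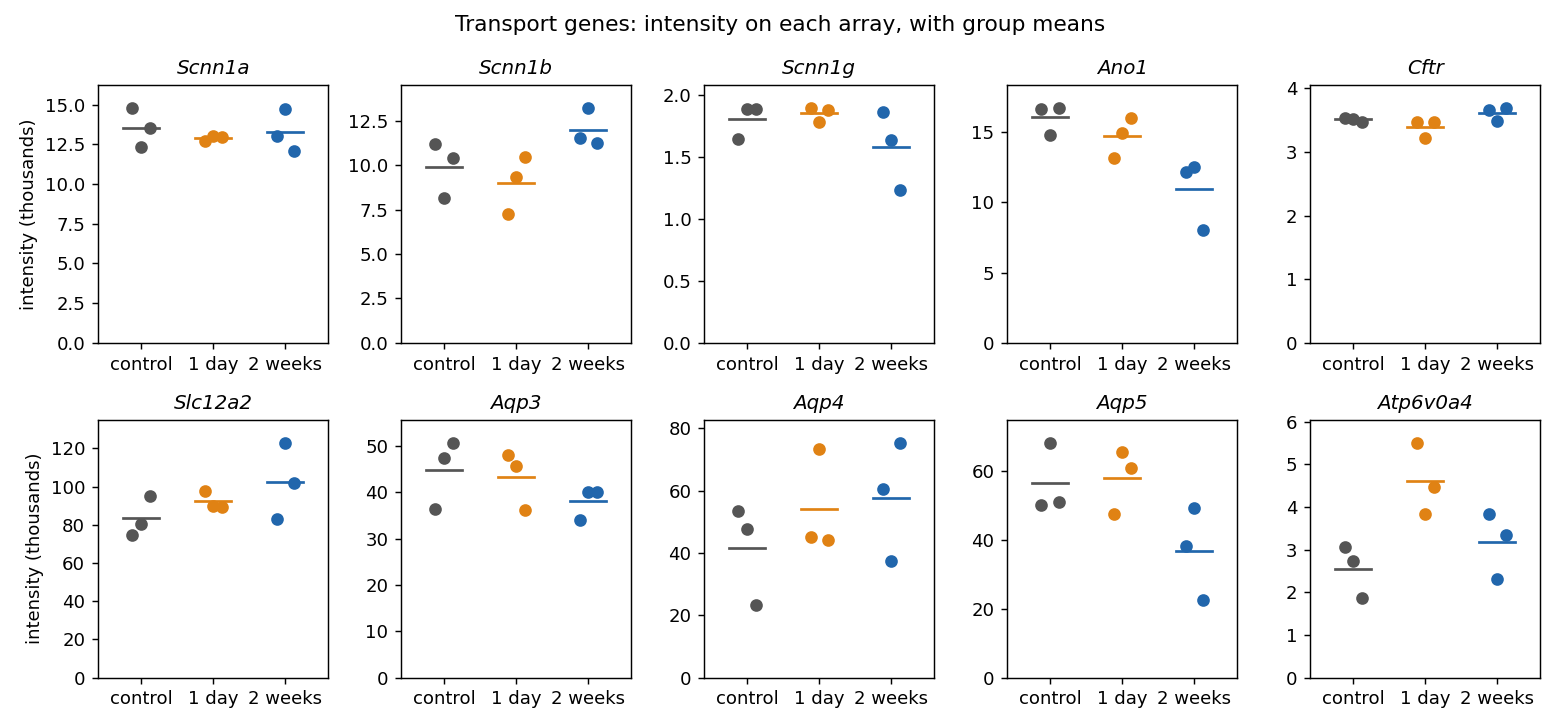
Intensity of the 10 transport genes (vertical axes, linear intensity from 0, in the multiple given on the axis, a scale of its own for each gene) on each of the 9 arrays, with control in grey, 1 day in orange, 2 weeks in blue and a bar at each group's mean. The 3 arrays of the 1-day group lie above all control arrays for Atp6v0a4, and the 3 arrays of the 2-week group lie below all control arrays for Ano1 and Aqp5.

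The limma fit over 23631 features, at an adjusted p under 0.05, called 0 of the 10 genes in D1 against control, where 0% of all features were called. It called 0 of 10 in WK2 against control, where 1.61% of features were called, and 0 of 10 in WK2 against D1, where the share was 0.0931%. At an unadjusted p under 0.05 the counts were 1, 2 and 4 of 10, beside 2%, 29.7% and 19.2% of all features. Groups did not overlap for 1 of 10 genes in D1 against control, on the higher side, where 10.1% of all features did not (4.92% higher and 5.19% lower). In WK2 against control they did not overlap for 1 higher and 2 lower genes, beside 37.6% of all features (23.8% higher and 13.8% lower). In WK2 against D1 they did not overlap for 2 higher and 1 lower, beside 31.4% (18.7% higher and 12.6% lower). Nothing is read from these counts, since the same values chose the genes. D1 and WK2 are set against the same 3 control arrays. For a single gene, 0.1 is the smallest p that an exact permutation of 3 against 3 arrays allows. The median log2 difference of the 10 genes in WK2 against control was 0.00, where the median of all features was 0.14. The latter moved to 0.01 under quantile normalization. For Scnn1b, Ano1 and Aqp5 the WK2 difference against control is therefore also given relative to the median of all features.

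The sodium channel subunits did not share 1 pattern. Scnn1a encodes the alpha subunit, which the channel needs to reach the surface. Its intensities were 14765, 12360.0 and 13499 in control, 12708, 12996 and 12952 in D1, and 13022, 14749 and 12052 in WK2. All 9 values lay within 1.23 times of each other, and the D1 arrays fell inside the control range. The log2 difference was -0.07 ± 0.14 (SE) in D1 and -0.03 ± 0.14 in WK2.

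Scnn1b encodes the beta subunit. Its intensities were 11183, 8125 and 10415 in control, 7242, 9344 and 10447 in D1, and 11546, 13186 and 11213 in WK2. Every WK2 array was above every control and D1 array, although WK2 replicate 3 exceeded control replicate 1 by a margin far smaller than the spread within either group. The log2 difference was 0.28 ± 0.18 (SE) against control, or 0.14 above the median of all features, and 0.42 ± 0.18 against D1. Without control replicate 2, the lowest control array, it was 0.15 against control, and it was 0.18 after each array was centred on its median.

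Scnn1g, the gamma subunit gene, is the chromosomal neighbour of Scnn1b among protein-coding genes of RefSeq's mouse assembly. Its intensities were 1649, 1890 and 1886 in control, 1893, 1787 and 1876 in D1, and 1867, 1641 and 1236 in WK2. The WK2 group overlapped with control, and 1 of its arrays, replicate 3, lay below the other 8. The log2 difference in WK2 was -0.20 ± 0.17 (SE), opposite in sign to that of Scnn1b. Over the 9 arrays Pearson's r between Scnn1b and Scnn1g was -0.44, and between Scnn1a and Scnn1b 0.55, both as a description of 9 arrays that share 3 groups.

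The chloride channel genes differed from each other. Ano1 encodes the calcium-activated chloride channel TMEM16A, found in many gland and airway epithelia. Its intensities were 16653, 14794 and 16671 in control, 13158, 14950.4 and 15993 in D1, and 12185, 12524 and 8039 in WK2. The 3 WK2 arrays were the lowest of the 9, and D1 overlapped with control.

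For Ano1 the log2 difference in WK2 was -0.58 ± 0.19 (SE) against control, which is 1.49-fold lower and 0.72 below the median of all features. Against D1 it was -0.45 ± 0.19. WK2 replicate 3 was the lowest array; without it the difference against control was -0.37. The difference was -0.68 after median centring and -0.48 with array weights.

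Cftr encodes the chloride channel opened by cyclic AMP, which carries the mutations of cystic fibrosis. Its intensities were 3534, 3524 and 3470.4 in control, 3465, 3213 and 3474 in D1, and 3662, 3478 and 3683 in WK2. All 9 arrays lay within 1.15 times of each other, and the coefficient of variation in control was 0.976%. The log2 difference was -0.05 ± 0.12 (SE) in D1 and 0.04 ± 0.12 in WK2, and the latter turned to -0.06 after median centring. The WK2 arrays were all above the D1 arrays, but the nearest pair stood at 3478 and 3474, and the log2 difference was 0.09 ± 0.12.

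Slc12a2 encodes NKCC1, which brings sodium, potassium and chloride into secretory cells and also loads olfactory neurons with the chloride used in odour transduction. Its intensities were 74841, 80253 and 95334 in control, 97874, 89959 and 89569 in D1, and 83128, 122808 and 101779 in WK2. Both treated groups overlapped with control. The log2 difference was 0.15 ± 0.17 (SE) in D1 and 0.29 ± 0.17 in WK2, and the latter was 0.09 after quantile normalization.

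Of the 3 aquaporin genes, only Aqp5 had a group that did not overlap with control. Aqp3 encodes a basolateral channel for water and glycerol found in basal cells of stratified epithelia. Its intensities were 36444, 47434 and 50639 in control, 48165, 45706 and 36245 in D1, and 34142, 40179 and 40068 in WK2. All groups overlapped, with log2 differences of -0.04 ± 0.18 (SE) in D1 and -0.22 ± 0.18 in WK2. The summed intensity of the 4 basal cell markers (Krt5, Krt14, Krt15 and Trp63) was 27758 to 31883 in control and 41140.0 to 44326 in WK2. That sum is carried by Krt14 and Krt5, whose WK2 arrays lay above control, while Krt15 and Trp63 overlapped with control and Trp63 differed by -0.09; none of the 4 passed. Their part in the Aqp3 values was not tested.

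Aqp4 encodes a basolateral water channel of supporting cells and glands, and had the widest spread of the 10 genes. Its intensities were 53459, 47653 and 23426 in control, 45099, 73468 and 44289 in D1, and 60559, 37442 and 75270.3 in WK2. The groups overlapped throughout. The log2 differences of 0.43 ± 0.36 (SE) in D1 and 0.50 ± 0.36 in WK2 rested on control replicate 3: without it they were 0.06 and 0.14. It was the 1 gene of the 10 with 2 probes, and the dimmer probe, at 27671 on that array, gave -0.08 in D1 and 0.27 in WK2.

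Aqp5 encodes the apical water channel of serous gland cells. Its intensities were 50268, 68148 and 50925 in control, 47692, 65642 and 61049.9 in D1, and 38349.8, 49333 and 22467 in WK2. The WK2 arrays lay below all control arrays, and WK2 replicate 2 lay above D1 replicate 1. The log2 difference was -0.68 ± 0.27 (SE) against control, 1.60-fold lower and 0.82 below the median of all features, and -0.72 ± 0.27 against D1. Without WK2 replicate 3, the lowest array here as for Ano1, the difference against control was -0.36.

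Aqp5 lies between Aqp2 and Aqp6 among the protein-coding genes of its chromosome. Those neighbours were named for their position after the values were seen. Aqp2, the water channel of the kidney collecting duct, was at 7374 to 13298 in control and 14599 to 26568 in WK2 (log2 difference 0.82, adjusted p = 0.135, limma). Aqp6, on a very dim probe at 84.3 to 158.3 in control, overlapped with control in WK2 and differed by 0.40 (adjusted p = 0.165, limma). Neither passed.

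**Figure D2:**
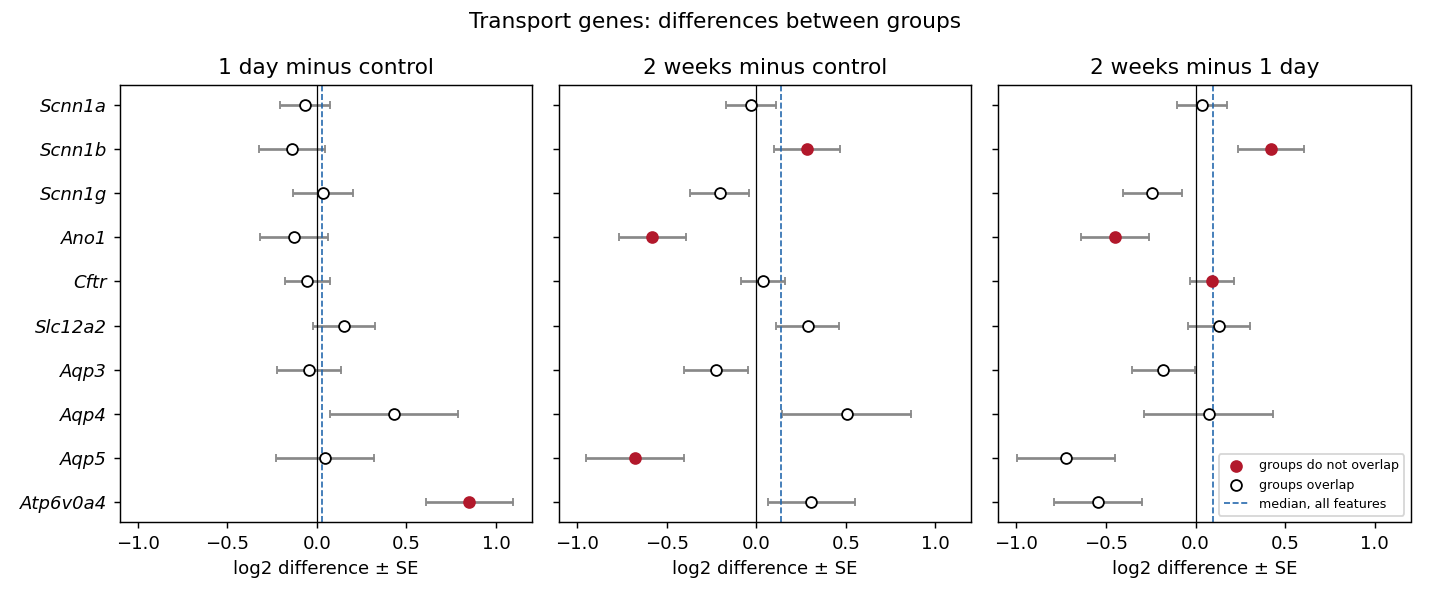
Log2 differences of the 10 transport genes with their standard errors (horizontal axes) in the 3 comparisons, 3 arrays a group; filled points are genes whose groups do not overlap, open points genes whose groups overlap, and the dashed line is the median of all features. Filled points are Atp6v0a4 in 1 day minus control, Scnn1b, Ano1 and Aqp5 in 2 weeks minus control, and Scnn1b, Ano1 and Cftr in 2 weeks minus 1 day.

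Atp6v0a4 encodes the a4 subunit of the membrane sector of the V-ATPase, an isoform of proton-secreting cells such as the intercalated cells of the kidney. Its intensities were 3056, 2724 and 1872 in control, 5494, 3829 and 4474 in D1, and 3843, 2321 and 3351 in WK2. Every D1 array was above every control array, while WK2 spanned the gap and overlapped with both groups. The log2 difference was 0.85 ± 0.24 (SE) in D1 against control, 1.80-fold higher, and ranged from 0.65 to 0.99 with any 1 array left out. It was 0.31 ± 0.24 in WK2 against control and -0.54 ± 0.24 in WK2 against D1.

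The ionocyte is an epithelial cell type rich in V-ATPase and Cftr, marked by the transcription factor Foxi1. The summed intensity of its 6 markers (Foxi1, Ascl3, Atp6v1b1, Atp6v1c2, Atp6v0d2 and Bsnd) was 81033 to 88317 in control, 79626 to 82920.0 in D1 and 86531 to 92549 in WK2, and 0 of the 6 were at or below 0 on any array. The D1 sums overlapped with control and did not exceed it. The brightest of the 6 markers, Atp6v1c2 and Ascl3, weigh most in the sum. In D1 2 markers lay above and 4 below control, of which Atp6v0d2 (-0.39) did not overlap with it. Foxi1 itself was at 4828 to 5260.2 in control, 4023 to 5716 in D1 and 3392 to 4638 in WK2. Its WK2 arrays lay below control without overlap (log2 -0.29, adjusted p = 0.275, limma). Of these 6 markers, 4 belong also to the pathway lists below. Other sums stood apart from control in D1, although limma called 0 markers there, as it called 0% of all features: the sum of 5 osteoclast markers, osteoclasts being another cell rich in V-ATPase, was 88545 to 99109 in control and 66836 to 67614 in D1, and that of 7 serous and secretory gland markers was 112.9% to 140.8% of its control mean in D1. The osteoclast sum is carried by Ctsk and Mmp9. Its Ctsk and Calcr lay below control in D1 without overlap, while Mmp9 (-0.39), Acp5 (-0.04) and Ocstamp (-0.21) overlapped with control. Of the 7 serous and secretory gland markers, 6 lay above control in D1, 3 of them without overlap, and Odam (-0.73) lay below. The part of these sums in the Atp6v0a4 values was not tested.

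Sequence before the start sites was read from RefSeq's promoter table for assembly GRCm38.p6, in which 7 of the 10 genes were found: Scnn1b, Scnn1g, Ano1, Cftr, Aqp3, Aqp5 and Atp6v0a4. Each window runs from 250 bases before to 50 after the start. The motifs searched, on both strands and chosen with the values known, were the glucocorticoid response element, AGAACA and TGTTCT with any 3 bases between them (in 0.00913% of all 32851 windows), its relaxed form, GNACA and TGTNC with any 3 bases between (0.475%), the receptor's short site TGTTCT (19%, which also lies within the full element), the D-box TTATGTAA bound by the clock factors Dbp and Tef (0.938%), the E-box CACGTG bound by the core clock activators (7.15%) and the TATA box TATAAA (13.6%). The full element, the short site and the D-box were in 0 of the 7 windows. The relaxed element was in 1 of 7, that of Atp6v0a4, at bases 36 to 48 after the start. The E-box was in the window of Aqp5 at 87 to 82 bases before the start, and the TATA box in that of Aqp3. A match is a description of letters and not of binding, and a missing match says nothing of the factor.

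The matching site of Atp6v0a4, the gene with the largest difference after 1 day, and the 250 bases before the starts of Atp6v0a4, Ano1 and Aqp5 are shown because the 3 genes had the largest differences whose groups did not overlap; capitals mark a motif match, and each sequence is written 5′ to 3′ on the gene's strand.
Atp6v0a4 site, chr6:38124537-38124559, minus strand: taggagcaGGACAGAGTGTTCct
Atp6v0a4, chr6:38124587-38124836, minus strand: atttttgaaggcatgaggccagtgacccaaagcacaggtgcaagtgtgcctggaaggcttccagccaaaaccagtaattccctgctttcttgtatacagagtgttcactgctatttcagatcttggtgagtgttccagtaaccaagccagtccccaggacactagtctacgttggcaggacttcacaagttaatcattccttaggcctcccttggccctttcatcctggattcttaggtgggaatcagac
Ano1, chr7:144738574-144738823, minus strand: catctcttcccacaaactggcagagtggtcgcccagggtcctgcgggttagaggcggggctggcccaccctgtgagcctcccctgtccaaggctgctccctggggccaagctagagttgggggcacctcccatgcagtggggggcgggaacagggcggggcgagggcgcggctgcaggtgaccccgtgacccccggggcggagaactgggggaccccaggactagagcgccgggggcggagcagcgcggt
Aqp5, chr15:99590778-99591027, plus strand: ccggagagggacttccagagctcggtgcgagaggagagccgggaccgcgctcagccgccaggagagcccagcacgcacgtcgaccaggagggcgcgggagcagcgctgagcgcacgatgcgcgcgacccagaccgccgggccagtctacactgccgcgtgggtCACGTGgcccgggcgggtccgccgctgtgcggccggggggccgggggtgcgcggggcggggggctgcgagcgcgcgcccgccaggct

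The 3 windows differed in base composition. The 250 bases before the start of Atp6v0a4 were 48.4% G or C with 1 CpG, those of Ano1 72.0% with 16, and those of Aqp5 78.4% with 38. Over all windows the median was 52.4% with 6 CpG. Aqp5 had more CpG than 98.1% of windows and Atp6v0a4 more than 7.87%. Of the 7 genes with a window, all but Atp6v0a4 lay above that median in G and C. Beside Ano1 and Aqp5 these were Cftr (76.4%, 30 CpG), Scnn1g (65.2%, 16), Aqp3 (64%, 14) and Scnn1b (60.8%, 7). Such starts were therefore not particular to Ano1 and Aqp5, the genes lower after 2 weeks, and Cftr differed by 0.04.

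Among the 10 genes Ano1, Aqp5 and Scnn1g varied together over the 9 arrays. Pearson's r was 0.87 between Ano1 and Aqp5, 0.80 between Scnn1g and Aqp5 and 0.79 between Ano1 and Scnn1g. All 3 were lowest on WK2 replicate 3. That array had the highest mean intensity, 8726, where the others stood at 7203 to 7627. Its share in these r, and in those of Aqp5 given below, was not tested. Atp6v0a4 followed none of them, with r of -0.16 with Ano1 and -0.05 with Aqp5. These are descriptions of 9 arrays, of 45 pairs in all, that share 3 groups and the same labelling.

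Of all named genes, those whose pattern over the 9 arrays was most like that of Aqp5 were Itpr3, an inositol trisphosphate receptor that releases calcium (r = 0.989), Itgb4, the beta-4 integrin of hemidesmosomes (0.987), Arhgef10l (0.985), Dgkz, a diacylglycerol kinase (0.976), and Carmil1 (0.969). Those most like Atp6v0a4 were H2bu2, a histone gene (0.947), Tcaf1 (0.903), Retreg3 (0.899), Nkx3-2 (0.885) and Nt5c1a (0.877). Each is among the highest of the correlations with all other named genes over 9 arrays, and the values for Atp6v0a4 were lower than those for Aqp5.

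Sums of cell type markers differed from control in WK2, although limma called 0 markers of any list in that comparison, at adjusted p of 0.0547 or more; their part in the results on Ano1 and Aqp5 was not tested. The summed intensity of 7 serous and secretory gland markers was 96.9% to 105.1% of its control mean on the control arrays, 112.9% to 140.8% in D1 and 136.5% to 171.0% in WK2. The sum of the 3 measured olfactory gland markers (Sox9, Obp2a and Muc5b) was 131.5% to 168.8% in WK2, and that of 6 sustentacular cell markers 129.8% to 144.0%. The sustentacular sum is carried by the bright Cyp2g1 and Cbr2, and Hes1 of the same list lay below control without overlap (log2 -0.85, adjusted p = 0.0631, limma). The serous sum is carried by the bright Scgb1c1 and Bpifa1, although all 7 of its markers lay above control in WK2, 3 without overlap. The brightest probe of each array stood at 442592 to 514755 in control and 748086 to 875415 in WK2. The gland and sustentacular sums were above control in all 3 WK2 arrays, and Ano1 and Aqp5 were below control on the same arrays. How far the brightest probes make up these differences was not tested. Within the olfactory gland list, which is dominated by the bright Obp2a, the mucin gene Muc5b was at 55354 to 85758 in control and 36163 to 41947 in WK2, on the same side as Aqp5. Marker genes at or below 0 on any array numbered 0 in each of these lists.

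**Figure D3:**
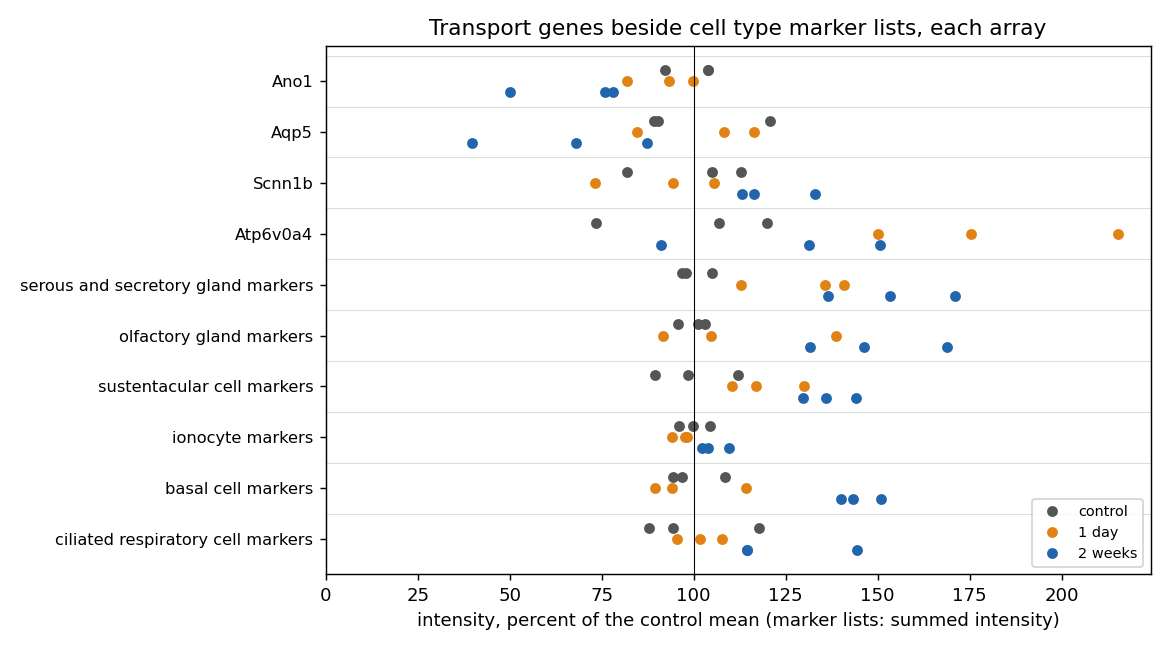
Intensity of 4 transport genes and summed intensity of 6 lists of cell type markers on each array, as a percentage of the control mean (horizontal axis, from 0), with control in grey, 1 day in orange and 2 weeks in blue. The 2-week arrays of Ano1 (50.1% to 78.1%) and Aqp5 (39.8% to 87.4%) lie below 100%. Those of all 6 lists lie above it. The ionocyte (102.4% to 109.5%) and ciliated cell (114.4% to 144.3%) sums overlap with their control arrays, which reach 104.5% and 117.8%. At 2 weeks 4 of 6 ionocyte and 5 of 6 ciliated cell markers lay above control. Foxi1 (log2 -0.29) and Foxj1 (-0.48) lay below, Foxi1 without overlap.

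The rest of the transport pathway was read from 8 lists of 134 genes outside the 10, of which 123 were measured. In D1 against control the limma test called 0 of 123, as it called 0% of all features, and 6 had an unadjusted p under 0.05, beside 2% of all features. In WK2 against control 1 gene rose and 3 fell, 4 of 123 in all, beside 1.61% of all features (0.432% higher and 1.18% lower), and 41 had an unadjusted p under 0.05, beside 29.7%. In WK2 against D1 it called 0 of 123, beside 0.0931% of all features (0.0296% higher and 0.0635% lower), with 34 at an unadjusted p under 0.05, beside 19.2%. The median log2 difference of the 123 genes in WK2 against control was 0.13, and that of all features was 0.14.

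The 3 genes that fell were all cation chloride cotransporters or a kinase of the family that controls them. Wnk2 encodes a WNK kinase, a family whose signalling activates inward cotransporters such as Slc12a2 and inhibits the potassium chloride cotransporters. Its intensities were 11401, 11564 and 15130.2 in control, 13387, 10396 and 11529 in D1, and 5857, 6531 and 4273 in WK2. It fell 2.29-fold (log2 -1.20 ± 0.20 SE, adjusted p = 0.0398, limma), with all 3 WK2 arrays below the other 6.

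Slc12a9 encodes a relative of these cotransporters, and Slc12a5 encodes KCC2, a potassium chloride cotransporter of neurons. Slc12a9 was at 3508, 4278 and 4061 in control, 3600.4, 2923 and 3949 in D1, and 2234, 1652 and 1262 in WK2, and fell 2.32-fold (log2 -1.21 ± 0.21 SE, adjusted p = 0.0413, limma). Slc12a5 was at 2601, 3301 and 3973 in control, 3306, 3195 and 3183 in D1, and 2016, 1405 and 1297 in WK2, and fell 2.07-fold (log2 -1.05 ± 0.20 SE, adjusted p = 0.0465, limma). In both genes all WK2 arrays were below all others. Slc12a2, the relative that moves chloride inward, had a log2 difference of 0.29 in the same comparison. The list of 13 measured cotransporters and kinases had 8 members below and 5 above control, with a median of -0.40.

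Aqp12, an aquaporin of the exocrine pancreas, rose 2.50-fold in WK2 (log2 1.32 ± 0.25 SE, adjusted p = 0.0422, limma). Its intensities were 1756, 1294 and 1536 in control, 2218, 3103 and 1751 in D1, and 3119.8, 5114 and 3625 in WK2. The WK2 arrays were all above the others, and D1 overlapped with control. Of the 9 measured genes of this list 7 lay above control, with a median of 0.40. Aqp8 differed by -0.49 (adjusted p = 0.0982, limma) and Aqp11 by 0.61 (adjusted p = 0.102, limma). The limma calls of Wnk2, Slc12a9, Slc12a5 and Aqp12 were kept when WK2 replicate 1 was left out. Each was lost on removal of any single one of the other 8 arrays, at adjusted p from 0.0645 to 0.148, and in the fit of the 2 groups alone (adjusted p = 0.112).

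**Figure D4:**
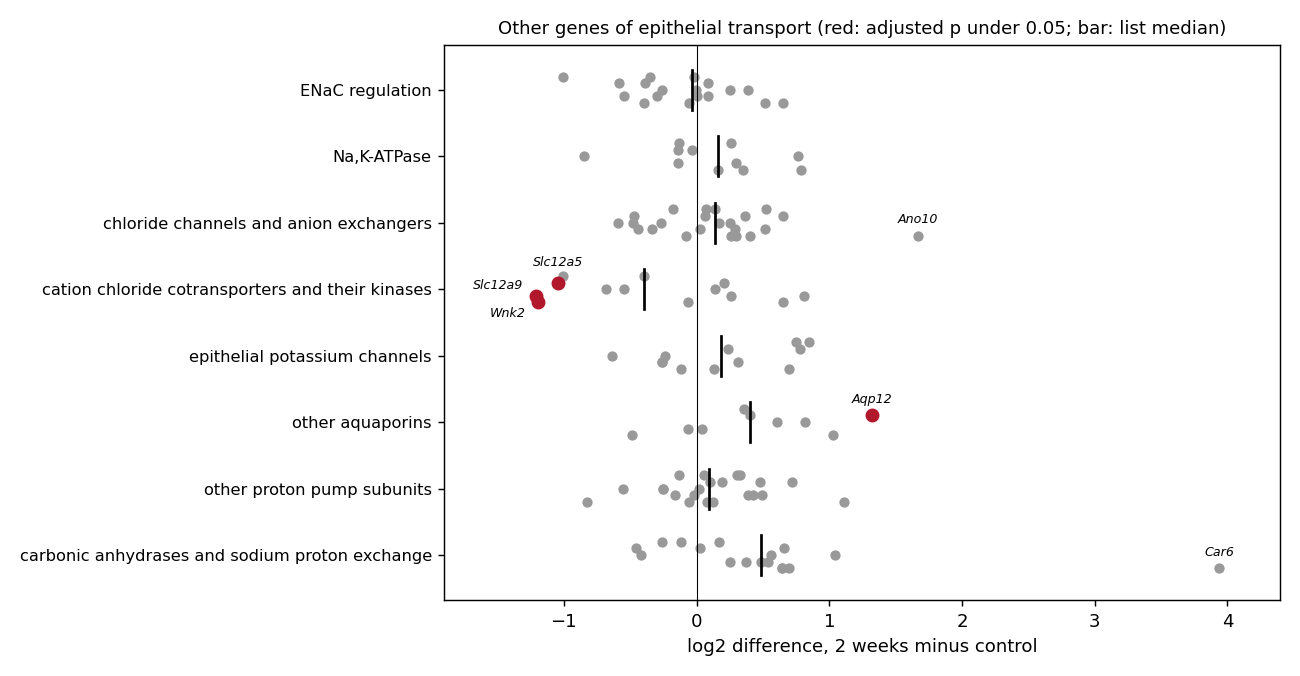
Log2 difference of 2 weeks minus control (horizontal axis) for the 123 measured genes of the 8 pathway lists, 1 point a gene and list, with each list's median as a black bar. Red points are the 4 genes past an adjusted p of 0.05, with Slc12a5, Slc12a9 and Wnk2 on the lower side and Aqp12 on the higher; genes beyond 1.2 in either direction are also named.

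Of 18 regulators of ENaC, 0 passed in any comparison. Usp2, a deubiquitinase with an isoform that acts on ENaC, was at 2041 to 3177 in control, 3074 to 4416 in D1 and 913 to 1926 in WK2, with a log2 difference of -1.37 ± 0.28 (SE) in WK2 against D1 (adjusted p = 0.111, limma). Wnk4 differed by -0.54 in WK2 against control (adjusted p = 0.0692, limma) and its dimmer probe by -1.45. Spint1, an inhibitor of channel-activating proteases, was at 9141 to 10599.9 in control and 12238 to 17066 in D1, without overlap (log2 0.55, adjusted p = 1.00, limma). Sgk1, the steroid-induced kinase that protects ENaC from removal, differed by 0.28 in D1 and 0.51 in WK2 (adjusted p = 0.170, limma); without control replicate 2 the values were -0.013 and 0.22. Nedd4l, the ubiquitin ligase that removes ENaC, differed by 0.00 in WK2 on its brighter probe and by -0.75 on its dimmer one. The median of the list in WK2 was -0.04.

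Of 11 measured sodium pump genes, 0 passed. Fxyd4 (0.76, adjusted p = 0.0851), Fxyd2 (0.79, adjusted p = 0.108) and Atp1b2 (-0.85, adjusted p = 0.0886) had the smallest p in WK2 against control by limma, and a dimmer probe of Fxyd2 gave -0.37. Atp1b1, the common beta subunit, differed by -0.14. Of 23 other chloride channels and exchangers, 0 passed, with a median of 0.14 in WK2. Clcn3 differed by 0.53 (adjusted p = 0.0647, limma) and Slc26a9, an airway chloride transporter, by -0.48 (adjusted p = 0.0798, limma). Clcn2 differed by -0.97 in WK2 against D1 (adjusted p = 0.123, limma).

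Ano2, the relative of Ano1 that carries the calcium-activated chloride current of olfactory cilia, was at 48533 to 50485 in control, 34756 to 48895 in D1 and 51319.5 to 69268 in WK2. Its WK2 arrays were all above control and those of Ano1 all below. The log2 difference of Ano2 was -0.20 in D1 and 0.26 in WK2 (adjusted p = 0.317, limma), which did not pass. The summed level of 8 mature neuron markers, neurons being the cells of Ano2, was 113.3% to 122.9% of the control mean in WK2. It is carried by Omp, on which the samples were picked; 5 of the 8 lay above and 3 below control, and Adcy3 (-0.58) and Gnal (-0.44) lay below without overlap, with 0 of the 8 passing. Its part in this value was not tested.

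Of 12 epithelial potassium channel genes, 0 passed. Kcnk1 was at 33801 to 41211 in control and 51436 to 76643 in WK2, and differed by 0.75 in WK2 against control (adjusted p = 0.0578, limma) and by 0.78 in WK2 against D1 (adjusted p = 0.123, limma). Kcnj15 (-0.64, adjusted p = 0.0591) and Kcne2 (0.85, adjusted p = 0.0602) did not pass in WK2 against control by limma.

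The other proton pump subunits did not share the pattern of Atp6v0a4. Of 22 measured, 11 lay above and 11 below control in D1, with a median of 0.01, and 0 passed in any comparison. The other isoforms of its subunit, Atp6v0a1, Atp6v0a2 and Tcirg1, differed in D1 by 0.13, 0.01 and -0.09. Atp6v0a1, the isoform of neurons, differed by -0.95 in WK2 against D1 (adjusted p = 0.166, limma). Atp6v1d, of the central stalk, differed by 0.72 in WK2 against control (adjusted p = 0.0631, limma), and Atp6v1a, the catalytic subunit, by 0.71 in WK2 against D1 (adjusted p = 0.154, limma). Atp6v1b1, the partner of Atp6v0a4 in proton-secreting cells, differed by -0.01 in D1 against control. In WK2 against control Atp6v1b1 differed by 0.30 (adjusted p = 0.203, limma), and Tcirg1, the isoform of osteoclasts, by -0.25.

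Of 17 carbonic anhydrases and sodium proton exchangers 13 lay above control in WK2, with a median of 0.48, and 0 passed. Car6, the secreted enzyme of saliva and nasal glands, was at 980.0 to 1370 in control, 1469 to 6508 in D1 and 3359 to 76288 in WK2. Its log2 difference of 3.94 ± 0.94 (SE) did not pass (adjusted p = 0.0584, limma), and was 2.91 without WK2 replicate 2, the highest array. Car12, of the basolateral membrane, differed by 0.65 (adjusted p = 0.0597, limma). Car3, an enzyme of muscle and fat, was at 9481 to 13991 in control, 7067 to 8593 in D1 and 17301 to 35265 in WK2, with a log2 difference of 1.69 ± 0.26 in WK2 against D1 (adjusted p = 0.0530, limma).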

How the data were processed

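For each of 26423 probes and 9 arrays the authors deposited a linear intensity; how it was computed from the scans is not given in the sources used here. Between 8 and 18 probes per array lie below 0, as after background subtraction. Array medians were 1202 to 1447 and array means 7203 to 8726, with the highest mean on WK2 replicate 3. The values were used as deposited. The number of arrays limits the precision, and scaling changes the counts of calls. Per the labels' protocols, 1 µg of total RNA with an integrity number of at least 7 was amplified and labelled with Cy5.

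Gene symbols came from GEO's annotation of the array, brought up to date with RefSeq's GRCm38.p6 table by way of gene IDs (21825 probes matched; 21876 probes had 1 symbol, 0 several and 4547 none). The brightest probe stood for a gene, leaving 23631 features. log2(intensity + 50) was fitted over all 9 arrays with limma 3.58.1 in R 4.3.3 and p-values were adjusted by Benjamini-Hochberg over all features; fold changes are on this scale and understate the change of dim genes. The script was tested on simulated data.

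The members, the lists and the tests were chosen with earlier results of these data known. Of each pathway list the genes past an adjusted p of 0.05 were named, then those of smallest p up to 3, and always Sgk1, Nedd4l, Ano2, Atp1b1, Tcirg1, Atp6v1b1 and Foxi1, and the 5 genes most alike to 2 members. Other genes named were chosen after their values were seen. There were 18 alternatives: normalization, pseudocount, filter, probes, replicate block, arrays in the fit, weights and leaving out each array.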

Additional observations from a re-analysis of the deposited data

Results flagged for a closer look

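In 5 of the pathway genes named in the text, and in 10 of all 123 measured, all 3 D1 arrays lay on 1 side of the control mean and all 3 WK2 arrays on the other. Of those 5, the log2 difference of WK2 minus D1 was -1.37 for Usp2 (limma adjusted p = 0.111), -0.97 for Clcn2 (adjusted p = 0.123), 0.71 for Atp6v1a (adjusted p = 0.154), 1.69 for Car3 (adjusted p = 0.0530) and 0.46 for Ano2 (adjusted p = 0.210). None of the 5 passed that limma test of the difference, and whether each gene moved in opposite directions from control was not tested beyond it.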

How the results depend on the processing

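Of the 10 transport genes 0 were called in D1 against control and in WK2 against D1 under each of 18 alternatives. In WK2 against control 1 was called after median centring, where 6.54% of all features were called. With array weights 1 was called, where 11.6% of all features were, and under the other alternatives 0. Nothing is read from these counts, since the same values chose the genes. The 4 pathway genes called in WK2 against control (1.61% of all features) became 14 under quantile normalization (6.01% of all features), 12 after median centring (6.54%), 8 with a pseudocount of 500 (3.29%), 2 with a pseudocount of 16 (0.554%), 22 with array weights (11.6%), 0 in the fit of the 2 groups compared and 0 with the replicate block; with 1 array left out they were 0 to 8. In WK2 against D1, 0 pathway genes became 1 under quantile normalization, median centring, the filter on dim features, averaging of probes and the replicate block, 2 with array weights and 0 to 1 with 1 array left out. Correlations of deviations between arrays of the same replicate number ran from -0.282 to 0.136, and between arrays of different numbers from -0.338 to 0.308. These ranges overlap and do not settle whether replicate numbers pair the samples. The D1 difference of Sgk1 ran from -0.013 to 0.44 with 1 array left out, the lowest without control replicate 2. The WK2 difference of Nedd4l was -0.10 after median centring and -0.37 for the mean of its probes, and from -0.23 to 0.35 with 1 array left out. The cause of these shifts was not tested. The values give no detection calls, so which dim probes exceed background is not known.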
